A study of Chlamydomonas reinhardtii with 12 samples.

Results

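The 10 genes described here encode enzymes of starch synthesis in the green alga Chlamydomonas reinhardtii. Other starch genes were not examined, so sums and shares below cover these 10 alone. They were chosen by gene ID, as the rows of STA6, STA1, STA2, STA3, SBE1, SBE2, SBE3, STA7, STA11 and STA4, out of 17741 genes in the deposited tables. RNA was measured by sequencing of polyadenylated RNA in 4 groups of 3 libraries: the mutant vip1-1 under nutritional stress, vip1-1 in control culture, wild-type under nutritional stress and wild-type in control culture. All cultures were kept in TAP, a liquid medium with Tris, phosphate and acetate as a carbon source, at 25 °C under a photon flux of 50 µmol per square metre and second, control cultures for 24 h and stress cultures for 14 days. Culture age and nutrient state therefore cannot be told apart, and "stress" below means the 14-day culture. The labels name the strain CC-1690 for both genotypes, and vip1-1, which the series text calls deficient in inositol pyrophosphates, is 1 mutant strain. The study asked what these signalling molecules do when nutrients run short. The labels call the libraries biological replicates without saying whether they came from separate cultures, so the p-values measure the spread between these libraries.

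Starch is made in the chloroplast. ADP-glucose pyrophosphorylase, built from a small catalytic subunit (STA6) and a large subunit (STA1), makes ADP-glucose, the sugar donor of the pathway. Starch synthases add glucose to growing chains: STA2 is the granule-bound synthase that makes amylose, and STA3 is a soluble synthase that acts on amylopectin. Branching enzymes (SBE1, SBE2 and SBE3) introduce branch points, the isoamylase-type debranching enzyme STA7 trims misplaced branches, the disproportionating enzyme STA11 transfers short glucan chains, and STA4 is a plastidial starch phosphorylase. In this alga starch is known to accumulate when nitrogen or other nutrients are limiting.

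Total counts ran from 9749837 to 28833327 per library. The abundant features named below are the most abundant one and those whose log2 counts correlated with it above 0.98, 6 in all. They took from 0.561% to 71.0% of the total counts, with over 40% in 4 libraries (vip1-1 stress replicate 3, wild-type stress replicates 2 and 3, wild-type control replicate 1). Levels are therefore given as TMM-scaled FPKM: the count divided by the transcript length in kilobases and by the library total after TMM scaling, which corrects for such uneven composition. In the wild-type controls, for example, the deposited FPKM of STA6 were 45.4, 118.6 and 160.03 in replicates 1 to 3, whereas the scaled values were 133, 119.6 and 128. The counts of the 10 genes ran from 57 (SBE2, wild-type control replicate 1) to 12913 (STA6, vip1-1 control replicate 2), and 10 of 10 passed the filter on low counts. Levels come from whole cultures, so fewer cells expressing a gene and less RNA per cell cannot be told apart. In both genotypes control replicate 3 was the lowest of its group for STA2, SBE1, STA7 and STA4. It was the highest for STA3, SBE3 and STA11, so 7 of 10 genes stood at the same extreme in both. The share of all genes at such an extreme was not counted, so this cannot be called a trait of the 10 genes. Over all tested genes, the deviations of these libraries from their group means correlated at 0.4. Calls gained or lost without either library are named below.

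Under stress, transcripts for the first step of the pathway and for amylose synthesis were lower, and those of a branching enzyme higher, in both genotypes. STA6, STA1, STA2 and SBE2 fell and SBE1 rose in vip1-1 and in wild-type, and STA4 fell in wild-type. In vip1-1, 4 of 10 genes were called lower and 1 higher at an adjusted p under 0.05, against 11% and 12.2% of the 15286 genes tested. In wild-type, 5 were called lower and 1 higher, against 12.1% and 13.9% of all genes. The stress and control libraries did not overlap, lower under stress, for 4 genes in vip1-1 and 5 in wild-type, against 24.5% and 16.8% of all genes, and higher under stress for 3 genes in each, against 28.9% and 25.6%. The median log2 fold change of the 10 genes was -0.42 in vip1-1 and -0.68 in wild-type, beside 0.09 and 0.19 over all genes tested. The summed level of the 10 genes was 231 ± 21.1 TMM-scaled FPKM in vip1-1 stress against 440 ± 3.38 in vip1-1 control, and 288 ± 19.6 in wild-type stress against 494 ± 19 in wild-type control (SD, n = 3 each).

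**Figure D1:**
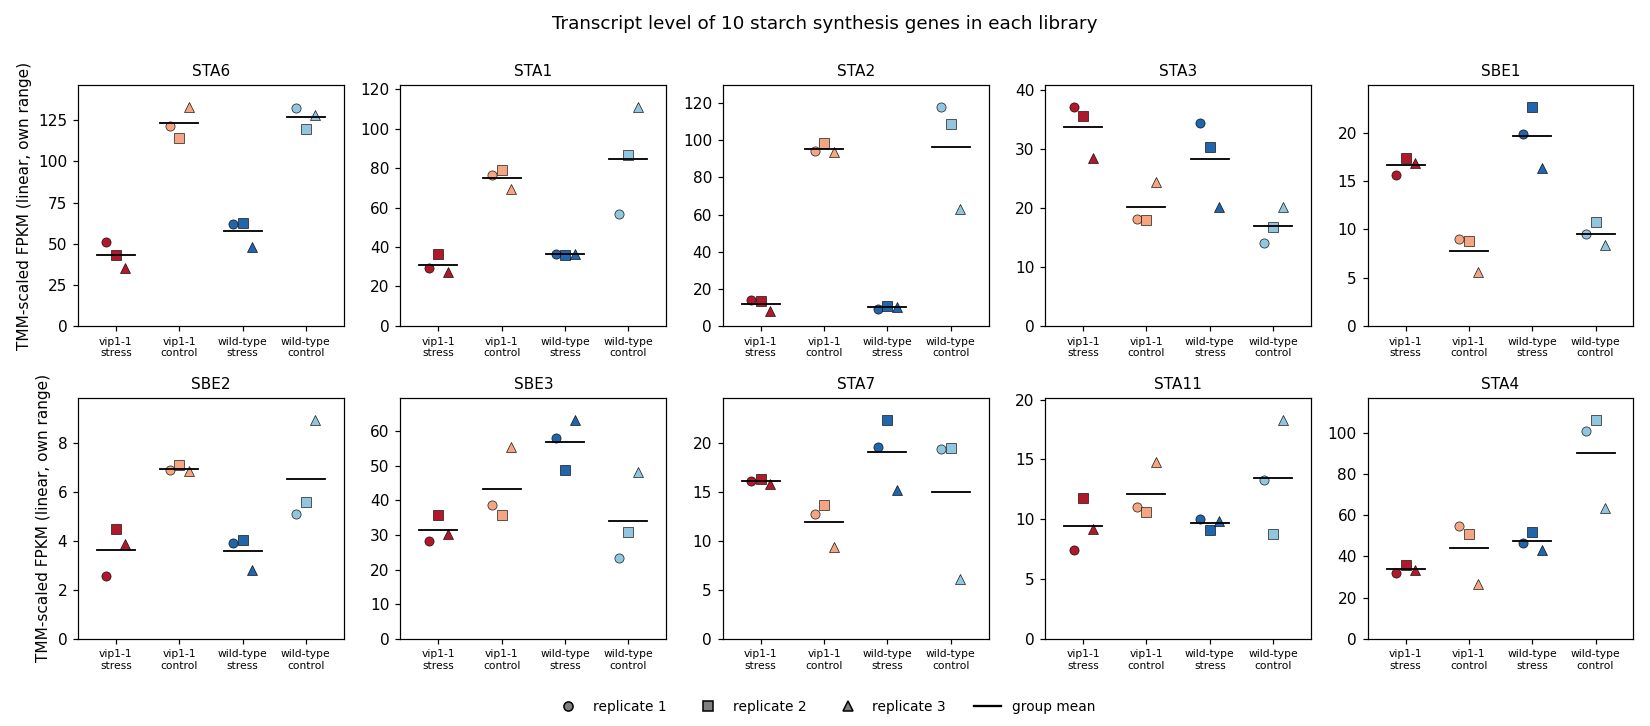
TMM-scaled FPKM (linear axis from 0, each panel with its own range) of the 10 genes in each of the 12 libraries; symbols are replicates and lines are group means (n = 3). STA2 lies between 7.84 and 14.2 in the 6 stress libraries and between 62.9 and 118 in the 6 control libraries.

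The small subunit STA6 (Cre03.g188250), which carries the catalytic activity of ADP-glucose pyrophosphorylase, had the highest mean level of the 10 genes in each of the 4 groups. It stood at 51.3, 43.1 and 35.1 TMM-scaled FPKM in vip1-1 stress, against 121.8, 114.4 and 133 in vip1-1 control. In wild-type it stood at 62.1, 62.3 and 48.1 under stress, against 133, 119.6 and 128 in control. Every stress library was below every control library. The log2 fold change was -1.51 (SE 0.21, edgeR quasi-likelihood adjusted p = 0.00048) in vip1-1 and -1.14 (SE 0.21, edgeR quasi-likelihood adjusted p = 0.0024) in wild-type.

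The large subunit STA1 (Cre13.g567950), which tunes the enzyme's response to its effectors, moved in the same direction. It had 29.1, 36.4 and 27.2 TMM-scaled FPKM in vip1-1 stress, against 76.6, 79.2 and 69.7 in vip1-1 control. In wild-type stress it had 36.5, 35.7 and 36.4, against 56.8, 86.4 and 110.9 in wild-type control. Every stress library lay below every control. The wild-type stress libraries were close together and the wild-type controls spread widely. Its log2 fold change was -1.28 (SE 0.25, edgeR quasi-likelihood adjusted p = 0.0034) in vip1-1 and -1.23 (SE 0.25, edgeR quasi-likelihood adjusted p = 0.004) in wild-type.

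Because the subunits work as one enzyme, their ratio within a library, which no library scaling can move, was compared as well. Counts of STA1 over counts of STA6, both per kilobase, came to 0.729 ± 0.144 in vip1-1 stress against 0.615 ± 0.0853 in vip1-1 control, and to 0.64 ± 0.102 in wild-type stress against 0.673 ± 0.223 in wild-type control (SD, n = 3 each). No difference was detectable, with a mean log2 difference of 0.11 between stress and control (exact two-sided permutation p = 0.6, exchanging labels within genotype) and 0.05 between vip1-1 and wild-type (exact two-sided permutation p = 0.8, exchanging labels within condition). Both have an adjusted p of 0.97 by Benjamini-Hochberg over the 6 exact permutation tests made on 3 such ratios.

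The granule-bound synthase STA2 (Cre17.g721500) had the steepest fall of the 10 genes. It stood at 14.2, 13.4 and 7.84 TMM-scaled FPKM in vip1-1 stress, against 94.1, 98.6 and 94.0 in vip1-1 control. In wild-type stress it stood at 9.27, 10.8 and 9.96, against 118, 108.8 and 62.9 in wild-type control. The highest stress library was far below the lowest control library. Expression was 8.08-fold lower under stress in vip1-1 (log2 fold change -3.02, SE 0.3, edgeR quasi-likelihood adjusted p = 6.5e-05) and 9.65-fold lower in wild-type (log2 fold change -3.27, SE 0.3, edgeR quasi-likelihood adjusted p = 3.7e-05). Of all genes tested, 2.59% had a more negative log2 fold change in vip1-1 and 3.21% in wild-type. STA2 was called under each of the 24 alternatives run in each genotype, with log2 fold changes from -3.33 to -2.87 in vip1-1 and from -3.5 to -2.97 in wild-type.

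The soluble synthase STA3 (Cre06.g282000) had higher levels under stress, but missed the threshold in both genotypes. It had 37.0, 35.5 and 28.4 TMM-scaled FPKM in vip1-1 stress, against 18.2, 18.0 and 24.4 in vip1-1 control. In wild-type stress it had 34.3, 30.4 and 20.2, against 14.1, 16.7 and 20.1 in wild-type control. The groups did not overlap in either genotype, although in wild-type the lowest stress and the highest control library nearly met. Its log2 fold change was 0.74 (SE 0.25) in each, at an edgeR quasi-likelihood adjusted p of 0.055 in vip1-1 and 0.051 in wild-type. It passed the threshold in 6 of 24 alternatives in vip1-1 and in 7 of 24 in wild-type, among them the edgeR fits without wild-type control replicate 3 (adjusted p = 0.043 in vip1-1 and 0.032 in wild-type). Without vip1-1 control replicate 3 it passed in both as well, at a log2 fold change of 0.89 (edgeR adjusted p = 0.042) in vip1-1 and 0.74 (edgeR adjusted p = 0.043) in wild-type. In wild-type it also passed without wild-type stress replicate 3 (0.82, edgeR adjusted p = 0.031). Over all alternatives its adjusted p ran from 9.7e-05 to 0.64 in vip1-1 and from 0.0015 to 0.6 in wild-type.

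The balance between STA2 and STA3 transcripts was thus turned over. Per kilobase, STA2 over STA3 was 0.346 ± 0.0604 in vip1-1 stress against 4.83 ± 0.866 in vip1-1 control, and 0.373 ± 0.112 in wild-type stress against 6 ± 2.65 in wild-type control (SD, n = 3 each). STA3 transcripts outnumbered those of STA2 in the 6 stress libraries, where the ratio ran from 0.27 to 0.493, and STA2 outnumbered STA3 in the 6 controls, where it ran from 3.14 to 8.36. The ratio was 14.6-fold lower under stress (exact two-sided permutation p = 0.005, the smallest that 400 arrangements allow, adjusted p = 0.03 over the 6 tests). Between vip1-1 and wild-type it differed by -0.15 on the log2 scale (exact two-sided permutation p = 0.57, adjusted p = 0.97). The ratio was chosen with earlier results known and restates the changes of STA2 and STA3 given above, so the stress test adds no separate evidence. With labels exchanged in pairs by replicate number, its adjusted permutation p was 0.19.

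**Figure D2:**
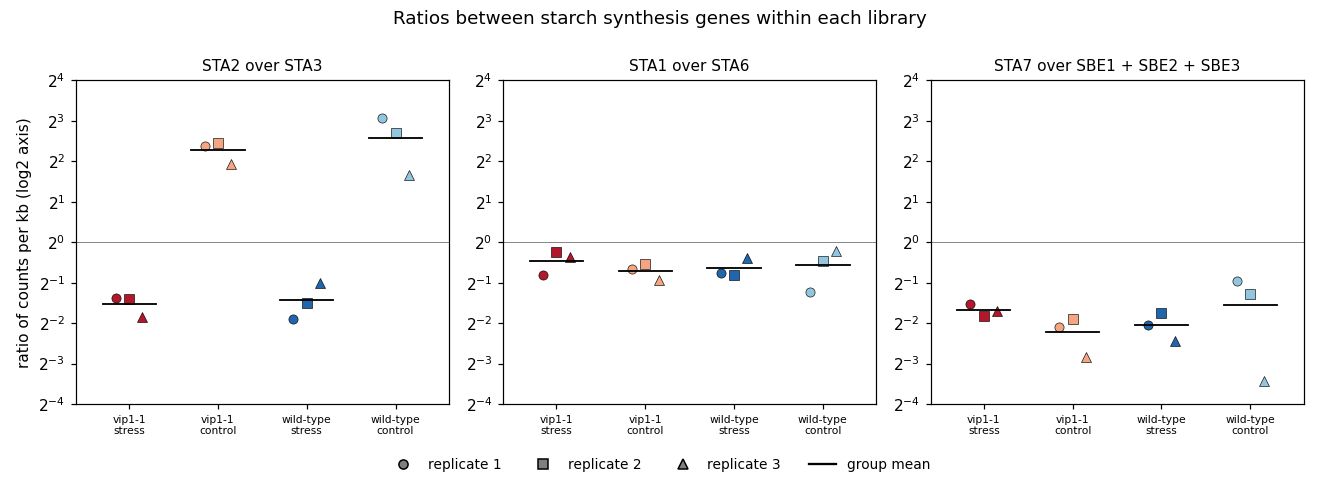
Ratios of counts per kilobase between the genes within each library (log2 axis); symbols are replicates and lines are group means (n = 3). STA2 over STA3 lies below 1 in all 6 stress libraries and above 1 in all 6 control libraries, whereas stress and control overlap in both genotypes for STA1 over STA6 and in wild-type for STA7 over the summed branching enzymes.

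The 3 branching enzymes moved in different directions. SBE1 (Cre06.g289850) had 15.6, 17.4 and 16.9 TMM-scaled FPKM in vip1-1 stress, against 8.96, 8.83 and 5.58 in vip1-1 control. In wild-type stress it had 19.9, 22.7 and 16.4, against 9.56, 10.8 and 8.37 in wild-type control. All stress libraries were above all controls, by 2.14-fold in vip1-1 (log2 fold change 1.09, SE 0.23, edgeR quasi-likelihood adjusted p = 0.0058) and by 2.06-fold in wild-type (1.04, SE 0.23, edgeR quasi-likelihood adjusted p = 0.0075). In wild-type this call was lost without wild-type stress replicate 2 (log2 fold change 0.84, edgeR adjusted p = 0.054), and over all alternatives the adjusted p ran from 4.8e-06 to 0.32.

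SBE2 (Cre06.g270100) had the lowest mean level of the 10 genes in each group and fell under stress, close to the threshold. It had 2.58, 4.49 and 3.86 TMM-scaled FPKM in vip1-1 stress, against 6.9, 7.11 and 6.86 in vip1-1 control. In wild-type stress it had 3.93, 4.04 and 2.82, against 5.1, 5.6 and 8.95 in wild-type control. The groups did not overlap in either genotype. The log2 fold change was -0.93 (SE 0.29, edgeR quasi-likelihood adjusted p = 0.037) in vip1-1 and -0.87 (SE 0.29, edgeR quasi-likelihood adjusted p = 0.046) in wild-type. Leaving out 1 library in turn lost the call in 6 of 12 fits for vip1-1 (wild-type stress 1, vip1-1 control 1, 2 or 3, vip1-1 stress 1 or 3) and in 8 of 12 for wild-type (wild-type control 3, each wild-type stress and vip1-1 control library, vip1-1 stress 2), at edgeR adjusted p of 0.051 to 0.13 in both. Over all 24 alternatives the call was lost in 10 for vip1-1 (adjusted p up to 0.39) and in 17 for wild-type (adjusted p up to 0.52).

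SBE3 (Cre10.g444700), the branching enzyme with the highest level in every group, had log2 fold changes of opposite sign in the genotypes. Its levels were 28.2, 35.7 and 30.2 TMM-scaled FPKM in vip1-1 stress, against 38.6, 35.6 and 55.4 in vip1-1 control. In wild-type stress they were 58.1, 48.9 and 63.2, against 23.2, 30.8 and 48.2 in wild-type control. The vip1-1 groups overlapped, while the wild-type stress libraries all lay above the controls, if narrowly. Neither response passed the threshold, with a log2 fold change of -0.46 (SE 0.28, edgeR quasi-likelihood adjusted p = 0.28) in vip1-1 and 0.73 (SE 0.28, edgeR quasi-likelihood adjusted p = 0.08) in wild-type. The wild-type response reached 1.07 without wild-type control replicate 3 (edgeR adjusted p = 0.011), and over its 24 alternatives the adjusted p ran from 0.0055 to 0.68.

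The debranching enzyme STA7 (Cre03.g155001) and the disproportionating enzyme STA11 (Cre03.g181500) showed no detectable change. STA7 averaged 16.1 ± 0.239 TMM-scaled FPKM in vip1-1 stress against 12 ± 2.25 in vip1-1 control, and 19.1 ± 3.63 in wild-type stress against 15 ± 7.71 in wild-type control (SD, n = 3 each). The wide spread of the wild-type controls came from replicate 3, at 6.12 beside 19.4 and 19.6, and the log2 fold change in wild-type was 0.35 (SE 0.37, edgeR quasi-likelihood adjusted p = 0.52) with that library and -0.03 without it. In vip1-1 it was 0.43 (SE 0.37, edgeR quasi-likelihood adjusted p = 0.45), with no overlap between stress and control libraries. STA11 averaged 9.46 ± 2.2 in vip1-1 stress against 12.1 ± 2.3 in vip1-1 control, and 9.64 ± 0.455 in wild-type stress against 13.5 ± 4.76 in wild-type control (SD, n = 3 each). The log2 fold change of STA11 was -0.36 (SE 0.28, edgeR quasi-likelihood adjusted p = 0.41) in vip1-1 and -0.48 (SE 0.29, edgeR quasi-likelihood adjusted p = 0.24) in wild-type, and its groups overlapped in both genotypes.

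STA7 over the summed levels of SBE1, SBE2 and SBE3 sets debranching beside branching transcripts. The ratio was 0.314 ± 0.033 in vip1-1 stress against 0.213 ± 0.0661 in vip1-1 control, and 0.24 ± 0.0559 in wild-type stress against 0.34 ± 0.219 in wild-type control (SD, n = 3 each). In vip1-1 the stress libraries, at 0.283 to 0.349, all lay above the controls, at 0.139 to 0.266, whereas in wild-type the mean was lower under stress and the groups overlapped. These differences within a genotype were not tested. Averaged over the genotypes, no difference was detectable between stress and control (log2 difference 0.2, exact two-sided permutation p = 0.66, adjusted p = 0.97) or between the genotypes (0.01, exact two-sided permutation p = 1, adjusted p = 1).

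The phosphorylase STA4 (Cre12.g552200) had 32.0, 35.9 and 33.6 TMM-scaled FPKM in vip1-1 stress, against 54.6, 50.8 and 26.4 in vip1-1 control. In wild-type stress it had 46.7, 51.6 and 43.3, against 100.8, 106.2 and 63.4 in wild-type control. The vip1-1 groups overlapped through control replicate 3, and the wild-type groups did not overlap. It fell in wild-type (log2 fold change -0.93, SE 0.29, edgeR quasi-likelihood adjusted p = 0.035), while in vip1-1 the log2 fold change was -0.38 (SE 0.29, edgeR quasi-likelihood adjusted p = 0.39). The wild-type call was lost in 6 of 12 fits that left out 1 library (wild-type control 1 or 2, each wild-type stress library, vip1-1 stress 2), at edgeR adjusted p of 0.051 to 0.09, and in 10 of 24 alternatives in all (adjusted p up to 0.46). Without vip1-1 control replicate 3 the log2 fold change in vip1-1 was -0.64 (edgeR adjusted p = 0.088).

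**Figure D3:**
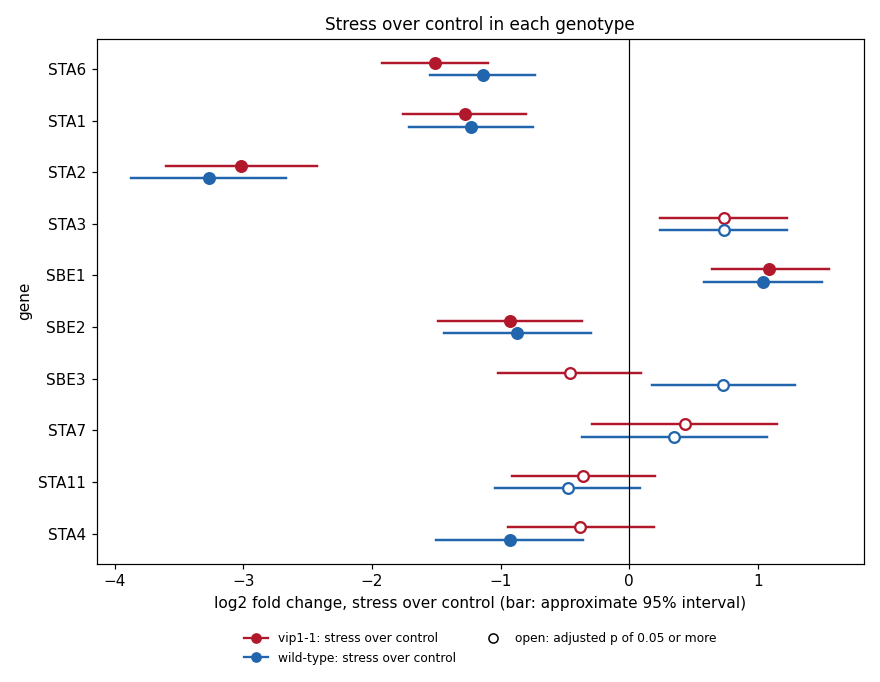
Log2 fold change of stress over control for the 10 genes in vip1-1 and in wild-type, from the edgeR fit of 12 libraries; bars are approximate 95% intervals and filled points passed an adjusted p of 0.05. STA2 lies at -3.02 in vip1-1 and -3.27 in wild-type, and SBE1 is the filled point on the positive side, at 1.09 and 1.04.

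These changes rearranged the make-up of the summed transcripts of the 10 genes. STA2 held 5.07% ± 1.19 of the summed level of the 10 genes in vip1-1 stress against 21.7% ± 0.737 in vip1-1 control, and 3.49% ± 0.352 in wild-type stress against 19.5% ± 5.55 in wild-type control (SD, n = 3 each). By mean level it ranked eighth of the 10 in both stress groups and second in both control groups. In wild-type control STA2 (96.5 ± 29.5 TMM-scaled FPKM) lay within its spread of STA4 (90.1 ± 23.3) and STA1 (84.7 ± 27.1). Under stress it lay within its spread of STA11, at 10 ± 0.756 against 9.64 ± 0.455 in wild-type and 11.8 ± 3.47 against 9.46 ± 2.2 in vip1-1. STA3 held 14.6% ± 1.15 in vip1-1 stress against 4.59% ± 0.834 in vip1-1 control, and 9.74% ± 1.94 in wild-type stress against 3.45% ± 0.701 in wild-type control. The share of SBE1 was 7.26% ± 0.771 in vip1-1 stress against 1.77% ± 0.433 in vip1-1 control, and 6.81% ± 0.737 in wild-type stress against 1.93% ± 0.167 in wild-type control. STA6 kept the first rank, at 18.7% ± 2.84 in vip1-1 stress against 28% ± 2.08 in vip1-1 control, and 19.9% ± 1.55 in wild-type stress against 25.7% ± 2.08 in wild-type control. Among the wild-type stress libraries STA6 and SBE3 did not differ in level beyond their spread, with 57.5 ± 8.15 and 56.7 ± 7.26 TMM-scaled FPKM. In vip1-1 stress STA4, STA3, SBE3 and STA1, the ranks after STA6, lay between 30.9 and 33.8, within their spread of one another.

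**Figure D4:**
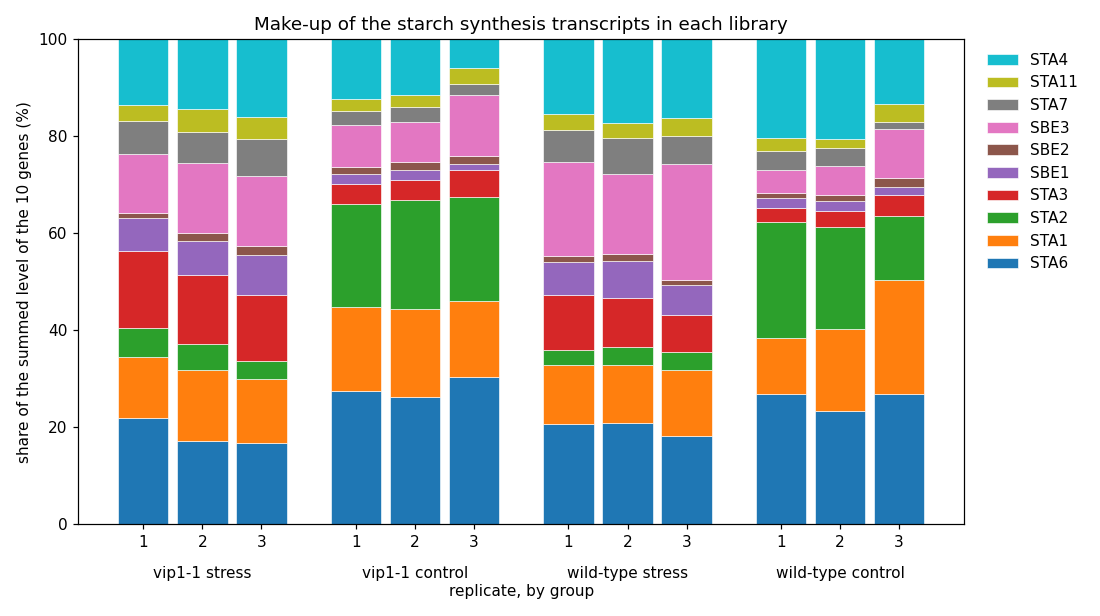
Share of each gene in the summed TMM-scaled FPKM of the 10 genes (percent, linear axis), 1 bar per library. STA2 takes between 3.09% and 6.08% in the stress libraries and between 13.2% and 23.9% in the control libraries.

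Between the genotypes none of the 10 genes passed the threshold in either condition. Under stress 0 of 10 were called, against 1.56% of all genes tested, and 1 (SBE3) had an unadjusted p under 0.05, against 15.3% of all genes. SBE3 was 1.81-fold lower in vip1-1 stress than in wild-type stress, without overlap between the libraries (log2 fold change -0.86, SE 0.28, edgeR quasi-likelihood adjusted p = 0.17). STA4 likewise did not overlap, at -0.48 (SE 0.29, edgeR quasi-likelihood adjusted p = 0.48), and 13.7% of all genes were lower in vip1-1 stress without overlap. The other 8 genes had log2 fold changes between -0.41 (STA6) and 0.25 (STA3), with approximate 95% intervals that reach from -0.96 to 0.79. DESeq2 called 0 of 10, and limma voom with sample weights called 4 of 10, all lower in vip1-1 (STA6, SBE1, SBE3 and STA4).

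In control cultures 0 of 10 were called, against 0.255% of all genes tested, and 1 (STA4) had an unadjusted p under 0.05, against 6.5% of all genes. STA4 averaged 43.9 ± 15.3 TMM-scaled FPKM in vip1-1 control and 90.1 ± 23.3 in wild-type control (SD, n = 3 each), 2.05-fold lower in vip1-1 and without overlap, as were 4.36% of all genes (log2 fold change -1.04, SE 0.29, unadjusted p = 0.0041, edgeR quasi-likelihood adjusted p = 0.28). Without wild-type control replicate 3 the log2 fold change was -1.24 and the gene was called (edgeR adjusted p = 0.03). It was also called by DESeq2 (adjusted p = 0.014) and by limma voom with sample weights (adjusted p = 0.016), and over its 25 alternatives the adjusted p ran from 0.014 to 1. SBE3 had a log2 fold change of 0.34 (SE 0.28, edgeR quasi-likelihood adjusted p = 0.95), and the other 8 genes lay between -0.32 (STA7) and 0.25 (STA3), with approximate 95% intervals that reach from -1.05 to 0.74. Without wild-type control replicate 3 STA7 stood at -0.7 (edgeR adjusted p = 0.11) and STA11 at 0.15 (edgeR adjusted p = 0.79), where they had -0.32 and -0.15 with it.

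Whether the stress response itself depended on genotype was tested as the interaction, the log2 fold change in vip1-1 minus that in wild-type. It was called for 0 of 10 genes, against 0.0393% of all genes tested, and 1 (SBE3) had an unadjusted p under 0.05, against 8% of all genes. SBE3 had an interaction of -1.2 (SE 0.4, unadjusted p = 0.012, edgeR quasi-likelihood adjusted p = 0.49). It was called without wild-type control replicate 3 (-1.53, edgeR adjusted p = 0.039) and by limma voom with sample weights (-1.03, adjusted p = 0.032), and its adjusted p ran from 0.032 to 1 over 23 alternatives. The interaction of STA4 was 0.55 (SE 0.41, edgeR quasi-likelihood adjusted p = 0.78), so its call in wild-type alone does not show a difference between the genotypes. For STA2 it was 0.26 (SE 0.39, approximate 95% interval -0.52 to 1.03, edgeR quasi-likelihood adjusted p = 0.92) and for STA6 -0.37 (SE 0.29, interval -0.94 to 0.2, edgeR quasi-likelihood adjusted p = 0.78).

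**Figure D5:**
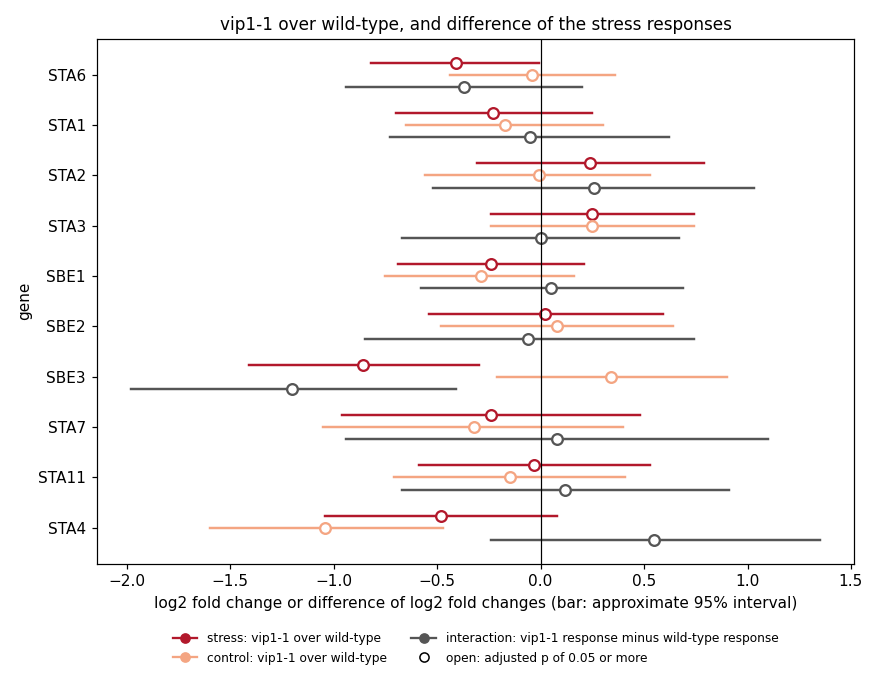
Log2 fold change of vip1-1 over wild-type under stress and in control, and the interaction (vip1-1 response minus wild-type response), for the 10 genes; bars are approximate 95% intervals. No point passed an adjusted p of 0.05. The intervals that exclude 0 are those of STA4 in control (-1.6 to -0.47), of SBE3 under stress (-1.41 to -0.3) and in the interaction (-1.98 to -0.41), and of STA6 under stress (-0.82 to -0.01). For STA6 the unadjusted edgeR quasi-likelihood p was 0.068, so these intervals are somewhat narrower than the test allows.

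Over the 12 libraries the 10 genes did not share one pattern. The log2 CPM of single genes correlated with the mean of their standardised log2 CPM at Pearson's r from -0.567 (STA3) to 0.849 (STA1). These values are a description only, since the libraries belong to 4 groups and each gene is part of the mean. Outside the 10 genes, those most like that mean were Cre06.g265550 (r = 0.962), Cre03.g199983 (r = 0.962) and Cre16.g656250 (r = 0.958), whose functions were not looked up. Their log2 fold changes under stress were -0.93, -1.45 and -1.81 in vip1-1 and -0.36, -0.9 and -1.34 in wild-type.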

How the data were processed

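Per the labels, libraries followed Illumina's TruSeq Stranded mRNA protocol. The submitters' processing notes name HISAT2 and StringTie. Versions, genome build, annotation and strand setting are not given in the sources used here. The authors deposited whole-number read counts per gene and FPKM (scaled to transcript length and library total) for 17741 gene IDs. Table columns carry the short library names of the labels, and titles give the groups. Transcript lengths (2595 to 5443 bases for the 10 genes) were taken from the ratio of the deposited counts to FPKM, which varied by at most 0.674% between libraries. The reference table (assembly v5.5) matched 17738 IDs and paired 0 with another symbol, so the planned lists of related starch genes could not be made, no coordinates are given, and the gene disrupted in vip1-1 was not analysed here. No other gene of that table overlaps the 10.

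The tests used edgeR 4.0.16 (R 4.3.3) with filterByExpr by group (15286 genes kept), TMM scaling, a group-means model of all 12 libraries, robust quasi-likelihood tests, Benjamini-Hochberg adjustment over all genes, and calls at an adjusted p under 0.05. Standard errors are the absolute log2 fold change over the square root of F, and approximate 95% intervals are 1.96 of them either side. The fit was also run on simulated counts with known changes in wild-type stress alone. That setting is simpler than these data, and no result here rests on it. Alternatives used DESeq2 1.42.0, limma 3.58.1 on voom weights and on log2(FPKM + 1) and log2(FPKM + 0.1) (fold changes there are on that scale and understate low genes), other scalings and filters, and each library left out in turn. The text names the 10 genes and the 3 genes most correlated with their mean. Genes, ratios and tests were chosen with earlier results of these data known.

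Replicate numbers recur in all 4 groups. Between vip1-1 and wild-type controls, libraries of 1 number deviated together from their groups (correlation over all tested genes 0.16, 0.19 and 0.4, each over 0.1). The pairing of the control libraries comes from this check and not from the labels, and in the other comparisons at least 1 correlation was negative. No library duplicated another, as the chi-square per degree of freedom was at least 12.8 for each of the 66 pairs of libraries. The value of 12.8 was that of vip1-1 control replicates 1 and 2, and the next lowest of any pair was 86.1. By this measure that pair was much more alike than any other, which can narrow the spread of the vip1-1 controls. The reason was not tested.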

Additional observations from a re-analysis of the deposited data

How the results depend on the processing

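The 5 stress calls shared by the genotypes kept their direction under each of the 24 alternatives per genotype, but the number of the 10 genes called depended on the scaling. With library totals alone, with limma on log2(FPKM + 1) and with limma on log2(FPKM + 0.1), 1 gene (STA2) was called in each genotype, where the edgeR test with TMM called 5 in vip1-1 and 6 in wild-type. These scalings carry no correction for the abundant features. With library totals the log2 fold changes themselves stayed about as large, at -1.56 for STA6 and -1.35 for STA1 in vip1-1 and at -1.14 for STA6 and -1.41 for STA1 in wild-type. DESeq2 called 6 genes in vip1-1 and 8 in wild-type, and limma voom 7 and 8. With only the libraries that have at most 40% of counts in those features, an alternative chosen after seeing the data, 3 were called in vip1-1 and 1 in wild-type, whose lone stress library is assumed to vary like the other groups. Leaving out 1 library gave 4 to 6 called genes in vip1-1 and 3 to 7 in wild-type, the lowest without wild-type stress replicate 2. Between genotypes the count was 4 under stress with limma voom. In control it was 1 with DESeq2 and 1 with limma voom, and 0 to 1 with 1 library left out. The interaction count was 1 with limma voom and 0 to 1 with 1 library left out.

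With the replicate number as a block, 5 genes were called in vip1-1 and 6 in wild-type, with SBE2 lost in wild-type (log2 fold change -0.85, edgeR adjusted p = 0.063) and SBE3 gained (0.78, edgeR adjusted p = 0.043). The block called 0 genes between genotypes in each condition and for the interaction, also when only the control libraries were fitted. For the STA2 to STA3 ratio the paired exchange of labels kept the log2 difference at -3.87 but gave an adjusted permutation p of 0.19, since exact pairwise exchange allows few arrangements. It changed no other call.

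Scaling by library totals moved the median of all genes by 0.58 (control) and 0.56 (stress) on the log2 scale between genotypes. STA4 under stress then stood at 0.11 in vip1-1 over wild-type, and at 0.12 with both FPKM scales, but at -0.5 relative to the median with library totals. The interaction of STA2 was -0.12 with log2(FPKM + 1) and -0.08 with log2(FPKM + 0.1). Among the genotype differences given as ranges, 38 of 200 values in control and 29 of 192 under stress took the other sign, 0 of them called. Of the interactions of the remaining 6 genes, 39 of 138 did, 0 of them called. Leaving aside library totals and both FPKM scales, 20 of 176 in control, 14 of 168 under stress and 29 of 120 interactions did. Those values lay between -0.06 and 0.16 in control, -0.17 and 0.12 under stress, and -0.24 and 0.22 for the interaction. With 1 library left out, the wild-type stress response of STA7 ran from -0.03 to 0.53. The STA1 to STA6 ratio ran from -0.04 to 0.21 for stress and from -0.1 to 0.16 for genotype, and the ratio of STA7 to branching enzymes from -0.18 to 0.43 and from -0.38 to 0.23. The cause was not tested. Depth limits SBE2 most, with 57 counts in its lowest library.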
